A study of Mus musculus with 4 samples.

Results

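Alpha-defensins of the Paneth cell were followed across 4 one-colour microarrays of mouse lamina propria lymphocytes, a preparation of immune cells from the layer beneath the gut lining. The 9 genes were Defa29, Defa42, Defa5, Defa37, Defa40, Defa32, Defa3, Defa-ps1 and Defa23, of 20659 genes that the arrays' probes could be named to. They were chosen by the measured differences of their log2 signals between these 4 arrays, so the differences below describe the choice and carry no test. All probes whose RefSeq accession belongs to one of the 9 symbols were kept, which gave 14 probes of 39429, each printed as 1 spot per array. Defa23, Defa3, Defa32 and Defa42 had more than 1 probe.

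The mice were C57BL6 and had all received dextran sulfate sodium (DSS), a chemical that injures the colon lining. The 4 groups were Stat4-/- mice with DSS and LIF, Stat4-/- mice with DSS, wild-type (WT) mice with DSS and LIF, and WT mice with DSS. LIF (leukemia inhibitory factor) is a cytokine related to interleukin-6, and Stat4 is a transcription factor activated by interleukin-12. Cells were taken on day 10. Each group had 5 mice and 1 array, and the labels do not say whether RNA of the 5 mice was pooled, how LIF was given, which gut segment was taken, the age of the mice or how the Stat4-/- allele was made. No array of mice without DSS was analysed here. No difference could be checked against replicates, since each group has 1 array, and p-values are not given.

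Alpha-defensins are short cationic peptides, held together by disulfide bonds, that kill bacteria by disrupting their membranes. In mice they are called cryptdins and are stored in the granules of Paneth cells, secretory epithelial cells at the base of the small intestinal crypts that are scarce in the healthy mouse colon. The peptides are made as inactive precursors, which the matrix metalloproteinase Mmp7 cleaves in the mouse. Unlike those of humans, mouse neutrophils lack alpha-defensins. The genes form a cluster of recent duplicates, in which neighbouring copies are often near-identical. All 9 genes lie in this cluster on chromosome 8, among 40 Defa symbols of a RefSeq gene table (assembly GRCm38.p6, used for names and gene order), of which 29 are protein coding. Counted along the chromosome, Defa23 is number 6, Defa40 number 15, Defa3 number 17, Defa5 number 18, Defa29 number 20, Defa42 number 26, Defa32 number 29, Defa37 number 30 and Defa-ps1, a transcribed pseudogene, number 36. The names are not settled: the table lists the symbol Defa29 as a synonym of Defa5 and the symbol Defa27 as a synonym of Defa3. Defa29 also carries the synonym CRS1C, for cryptdin-related sequence, a group whose peptides form covalent dimers.

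RefSeq promoters, running from 250 bases before the annotated start of a gene to 50 after it, were at hand for 4 of the 9 genes and 16 of the 40 Defa symbols. They are shown for these 4 genes and for Defa21, a cluster neighbour whose probe was not well above background on any array, to show how close the copies are. Positions are on GRCm38.p6, at chr8:21054790-21055089 for Defa23 (plus strand), chr8:21456468-21456767 for Defa42 (minus strand), chr8:21528780-21529079 for Defa32 (plus strand), chr8:21565136-21565435 for Defa37 (plus strand) and chr8:21025295-21025594 for Defa21 (plus strand). Each sequence runs 5′ to 3′ on the strand of its gene. Capitals mark every match, on either strand, of the motifs described after the sequences.
Defa23: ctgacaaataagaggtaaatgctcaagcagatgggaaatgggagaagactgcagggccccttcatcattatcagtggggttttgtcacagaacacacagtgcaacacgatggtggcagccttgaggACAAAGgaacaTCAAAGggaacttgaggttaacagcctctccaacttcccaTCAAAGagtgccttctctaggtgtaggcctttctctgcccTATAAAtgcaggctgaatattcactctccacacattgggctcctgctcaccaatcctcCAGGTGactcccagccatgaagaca
Defa42: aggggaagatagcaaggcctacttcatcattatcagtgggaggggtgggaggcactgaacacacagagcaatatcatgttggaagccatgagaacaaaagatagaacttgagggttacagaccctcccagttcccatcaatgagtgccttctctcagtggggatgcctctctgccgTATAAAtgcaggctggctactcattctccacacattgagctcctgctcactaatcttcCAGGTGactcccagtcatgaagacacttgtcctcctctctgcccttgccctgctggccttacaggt
Defa32: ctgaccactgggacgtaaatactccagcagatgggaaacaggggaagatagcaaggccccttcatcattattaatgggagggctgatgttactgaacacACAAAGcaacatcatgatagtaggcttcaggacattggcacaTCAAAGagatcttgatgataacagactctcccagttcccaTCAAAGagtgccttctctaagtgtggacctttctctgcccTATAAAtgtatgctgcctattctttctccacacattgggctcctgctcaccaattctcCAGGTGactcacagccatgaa
Defa37: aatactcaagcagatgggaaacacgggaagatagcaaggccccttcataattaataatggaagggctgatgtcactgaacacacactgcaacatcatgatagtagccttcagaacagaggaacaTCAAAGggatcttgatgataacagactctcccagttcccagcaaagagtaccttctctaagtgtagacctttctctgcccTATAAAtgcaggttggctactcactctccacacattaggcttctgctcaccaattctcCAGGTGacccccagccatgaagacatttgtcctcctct
Defa21: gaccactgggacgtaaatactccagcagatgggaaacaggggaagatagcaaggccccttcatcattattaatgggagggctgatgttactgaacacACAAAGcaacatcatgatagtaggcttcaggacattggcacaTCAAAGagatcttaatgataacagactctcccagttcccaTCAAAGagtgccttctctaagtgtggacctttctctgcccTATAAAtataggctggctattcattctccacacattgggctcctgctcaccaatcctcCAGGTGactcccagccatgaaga
The first motif searched was TATAAA, the TATA box. The core read by T cell factors, which act in Wnt signalling and drive Paneth cell genes, was searched as CTTTGA and as CTTTGT. An E-box was searched as CAGGTG and a GATA site as GATAAG. No matches of different motifs overlapped in the 16 Defa promoters. A capital stretch that reads TCAAAG or ACAAAG is a T cell factor core on the opposite strand. TATAAA begins 33 bases before the start in Defa23, 74 in Defa42, 29 in Defa32, 46 in Defa37 and 31 in Defa21. CTTTGA occurs on the opposite strand at 113 and 73 bases before the start in Defa23, at 109 and 69 in Defa32, at 111 and 71 in Defa21 and at 126 in Defa37. Defa42 holds neither T cell factor core in this window. CAGGTG begins after the start, at base 26 in Defa23, 30 in Defa32, 13 in Defa37 and 28 in Defa21. In Defa42 it begins 16 bases before the start. TATAAA was present in 15 of the 16 Defa promoters, against 13.6% of all 32851 RefSeq mouse promoters of this length. CTTTGA was present in 13 of the 16, against 16% of all, and CTTTGT in 9, against 18.7%. CAGGTG was present in all 16 Defa promoters, against 20.2% of all promoters, and GATAAG in 0, against 7.44%. These copies share descent, so the counts are descriptions and a match is not evidence of binding.

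Aligned pairwise, the promoters of the 4 genes were 81.4% (Defa23 with Defa42) to 90.1% (Defa32 with Defa37) identical. The promoter of Defa21 was 97.7% identical to that of Defa32. Defa42 was 97.3% identical to Defa38, and 100% identical to Defa43. Defa23 was 100% identical to Defa31, and Defa37 to Defa36. Defa32 was 100% identical to Defa2 and to Defa20 over 298 aligned bases. Defa2, Defa20, Defa31, Defa36 and Defa43 have no named probe on the array, and 23 of the 40 Defa symbols have none. Promoter identity says nothing of the probes themselves, whose sequences were not used here. Cross-hybridization between transcripts of near-identical copies was not tested, so a probe named for one gene may carry signal of several.

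The arrays were not equally bright. The 75th percentile of the processed signal, the intensity after the scanner software's background subtraction, lay between 23.78 (WT with DSS and LIF) and 122.9 (WT with DSS), and 37.6% to 61.7% of the probes were marked well above background, the software's call of detection. The array of WT mice with DSS and LIF stood apart: it correlated with the others at a Pearson r of at most 0.818 over 12674 probes detected on every array, whereas the other 3 correlated at 0.951 to 0.980. The 2 arrays of mice with DSS alone shared a scan, and the 2 arrays with LIF were each scanned separately, so scan and LIF cannot be told apart. Stat4 itself, read by 1 probe, had log2 levels of −0.48 and 0.31 on the arrays labelled Stat4-/- with DSS and LIF and with DSS, against 0.21 and −0.49 on the matching WT arrays, so its level did not separate the genotypes. The sources used here do not give where that probe lies relative to the deletion, and a probe outside it checks nothing. Every direction between genotypes below rests on the labels, and the arrays are called labelled Stat4-/-. All 12 of 12 intestinal epithelium markers and 8 of 8 T cell markers were well above background on all 4 arrays, so the RNA labelled as lymphocyte RNA held epithelial transcripts on each array.

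Signals were compared as log2 levels, the log2 of the processed signal minus the array's 75th percentile, where 0 is the level of that percentile. For a gene with several probes the probe with the highest mean level stands for it unless another is named. After scaling the 9 genes fell in the same order on the 4 arrays, and so did the 13 of 14 probes that were well above background on every array: WT with DSS and LIF was highest, then the array labelled Stat4-/- with DSS, then the array labelled Stat4-/- with DSS and LIF, and WT with DSS was lowest. The median log2 level over the 9 genes was 5.19 on the array labelled Stat4-/- with DSS and LIF, 5.68 on the array labelled Stat4-/- with DSS, 8.32 on the array of WT with DSS and LIF and −0.16 on the array of WT with DSS. The representative probe of each of the 9 genes was well above background on every array, so none was lost to detection. The neighbours at the bottom of the order are far apart, while the 2 arrays labelled Stat4-/- differ by 0.49 or less in each gene.

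**Figure D1:**
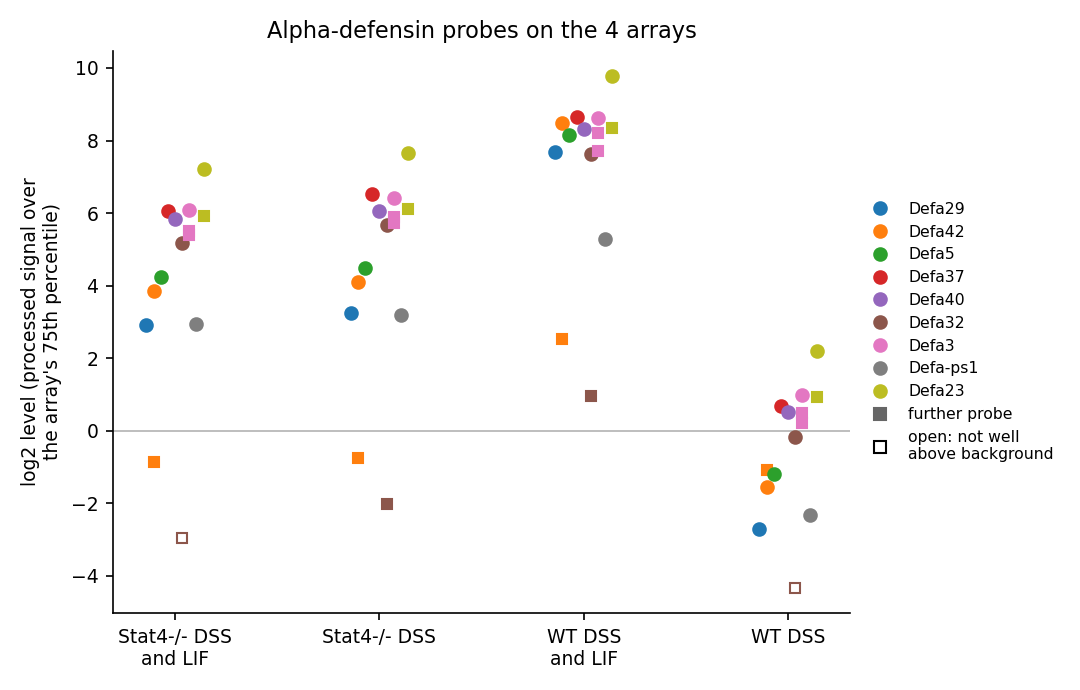
Log2 level (processed signal over the array's 75th percentile, vertical axis) of the 14 alpha-defensin probes on each of the 4 arrays (horizontal axis), with circles for the probe that stands for a gene, squares for further probes and open squares where a probe was not well above background. Each of the 13 probes well above background on every array is highest on the array of WT with DSS and LIF and lowest on that of WT with DSS; the second Defa32 probe, with 2 open squares, has no order among its dim arrays. Heights of different probes are not comparable with each other.

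The first comparison asked how LIF treatment went with alpha-defensin signal in WT mice with DSS. All 9 genes were higher on the array of WT with DSS and LIF than on that of WT with DSS, by 7.56 to 10.39 on the log2 scale, with a median of 7.80 or 223-fold. Of all 8982 genes measured on both arrays, 34.4% were higher by at least 1, the size that counted as a difference, and the median gene was 0.57 higher. The 99th percentile of those genes was 3.90, below each of the 9 genes. Since the genes were picked for such differences, nothing is read from their count against that share. The values also rest on the WT array with DSS and LIF, the one that stood apart.

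Defa29, which encodes a cryptdin-related sequence peptide, had processed signals of 4887 in WT with DSS and LIF and 18.8 in WT with DSS, a 1346-fold scaled difference. On the arrays labelled Stat4-/- its signals were 331 with DSS and LIF and 432 with DSS. Its WT signal with DSS alone was thus the lowest of the 4 by a wide margin, yet still well above background. Defa42, a protein-coding copy in the middle of the cluster, had signals of 8474 in WT with DSS and LIF and 42.4 in WT with DSS, a 1033-fold scaled difference. Its signals were 628 and 774 on the arrays labelled Stat4-/- with DSS and LIF and with DSS. Again 1 WT array lay above and the other below both arrays labelled Stat4-/-. Defa5, one of the classical cryptdins, had 6694 in WT with DSS and LIF and 54.3 in WT with DSS, 637-fold after scaling, with 816 and 1019 on the arrays labelled Stat4-/- with DSS and LIF and with DSS.

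The other 6 genes had smaller differences that lay close together, 7.56 to 7.96 on the log2 scale or 189-fold to 249.7-fold. Defa37 had signals of 9575 in WT with DSS and LIF and 198 in WT with DSS, against 2886 and 4171 on the arrays labelled Stat4-/- with DSS and LIF and with DSS. Defa40 had 7599 in WT with DSS and LIF and 176 in WT with DSS, with 2459 and 3032 on the corresponding arrays labelled Stat4-/-. Both are protein-coding copies, and their differences with LIF in WT were 7.96 and 7.80. Defa32 had 4704 in WT with DSS and LIF and 109.7 in WT with DSS, with 1579.7 and 2323 on the arrays labelled Stat4-/- with DSS and LIF and with DSS. Defa3, another classical cryptdin, had 9399 in WT with DSS and LIF and 246 in WT with DSS, with 2932 and 3893 on those labelled Stat4-/-. The spread between these genes is small beside the distance between the WT arrays. Defa-ps1, the pseudogene, had 927 in WT with DSS and LIF and 24.4 in WT with DSS, with 333 and 416 on the arrays labelled Stat4-/-, a profile like that of the coding copies. Defa23 had 20797 in WT with DSS and LIF and 568 in WT with DSS, with 6470.1 and 9081 on the arrays labelled Stat4-/- with DSS and LIF and with DSS.

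Defa23, at 7.56, was the lowest of the 9 genes in this comparison, and Defa26, at 7.39, and Defa27, at 7.06, lay just outside the chosen set. Without any scaling the 9 genes differed by a median of 5.43 between the WT arrays, while the median of all genes moved to −1.80, because the array of WT with DSS was much brighter. In this comparison the scaling thus set the size of the fold, while its direction stayed the same.

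The second comparison asked the same of LIF in mice labelled Stat4-/-. All 9 genes were slightly lower with DSS and LIF than with DSS, by 0.24 to 0.49 on the log2 scale (1.18-fold to 1.41-fold lower), and 0 of 9 passed a difference of 1 in either direction. Over all 9780 genes measured on both arrays 3.22% were higher and 3.07% lower by at least 1, with a median of −0.01 and a 5th to 95th percentile range of −0.84 to 0.87. Each of the 9 genes thus lay within the range of most genes. Defa32, at −0.49, and Defa37, at −0.47, had the largest differences, and Defa42 and Defa40, both at −0.24, the smallest. The direction was the same in 13 of 13 measured probes, which may share signal between near-identical copies. Within arrays, the median SD of this log2 difference over replicate spots of 1 probe was 0.119. It comes from other probes, since those of the 9 genes have 1 spot each. All 9 differences exceed that SD in size, but it does not cover the error between arrays. With a normexp background correction in place of the scanner software's, 6 genes (with an offset of 50) or 9 genes (without offset) were lower by at least 1, where the share of all genes lower by at least 1 was 8.88% and 24.2%.

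The LIF difference in mice labelled Stat4-/- minus that in WT was between −10.72 (Defa29) and −7.88 (Defa-ps1) on the log2 scale. This difference was not tested, since no group has a second array, and it includes the WT array that stood apart.

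The third comparison set the genotypes against each other with DSS alone, on 2 arrays of the same scan, neither of them the array that stood apart. All 9 genes were higher on the array labelled Stat4-/- than on that of WT, by 5.42 (Defa3) to 5.97 (Defa29), with a median of 5.63 or 49.6-fold. Of all 10529 genes measured on both arrays 13.2% were higher and 6.95% lower by at least 1, the median gene was 0.07 higher and the 99th percentile was 2.38. The rule that chose the genes used these arrays too, so the count is a description. The 9 values were close together: Defa37 and Defa32 were both 5.84 higher, Defa5 5.67, Defa42 5.63, Defa40 5.55, Defa-ps1 5.53 and Defa23 5.44. In unscaled signal Defa29 was 23.1-fold higher and Defa23 16.0-fold higher on the array labelled Stat4-/-, although that array was dimmer in general.

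The last comparison set the genotypes against each other with DSS and LIF. All 9 genes were lower on the array labelled Stat4-/- than on that of WT, by 2.34 (Defa-ps1) to 4.75 (Defa29), with a median of −2.55 or 5.85-fold lower. Over all 8347 genes measured on both arrays 31.3% were lower by at least 1, with a median of −0.45, a 5th percentile of −2.31 and a 1st percentile of −3.23. Defa29 (26.9-fold lower), Defa42 (24.6-fold lower) and Defa5 (14.9-fold lower) lay beyond that 1st percentile, and the other 6 genes, 5.07-fold to 6.04-fold lower, lay between the 1st and the 5th. The genotype difference in these genes was thus of opposite sign in the presence and absence of LIF. The comparisons of genotype share no array with each other, but that with LIF shares the WT array with DSS and LIF with the comparison of LIF in WT, and that without LIF shares the WT array with DSS, so the 4 sets of differences are not independent.

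**Figure D2:**
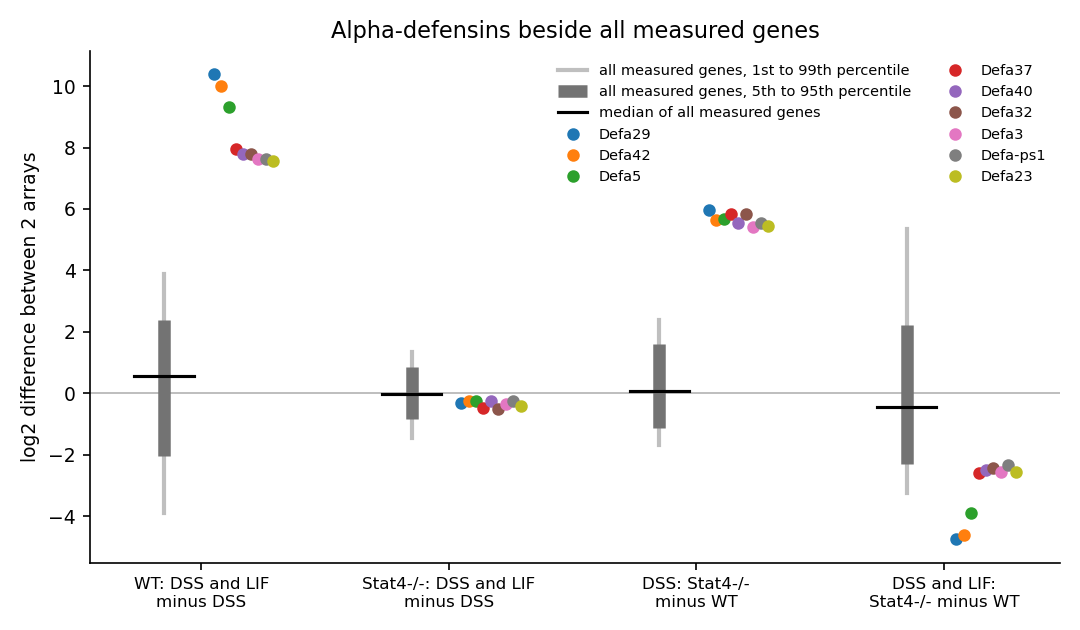
Log2 difference between 2 arrays (vertical axis) of the 9 genes in each of the 4 comparisons (horizontal axis), beside the median and percentile ranges of all genes measured on both arrays. The 9 genes lie at 7.56 to 10.39 for LIF in WT, at −0.49 to −0.24 for LIF in mice labelled Stat4-/-, at 5.42 to 5.97 for labelled Stat4-/- against WT with DSS and at −4.75 to −2.34 for labelled Stat4-/- against WT with DSS and LIF.

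Among themselves the genes fell into a pair of sets, seen after their values and not tested. Defa29, Defa42 and Defa5 differed by 9.32 to 10.39 for LIF in WT and by −4.75 to −3.90 for labelled Stat4-/- against WT with DSS and LIF. The other 6 differed by 7.56 to 7.96 and by −2.59 to −2.34 in these comparisons, so the ranges of the sets did not overlap. In labelled Stat4-/- against WT with DSS the ranges, 5.63 to 5.97 and 5.42 to 5.84, overlapped. By the brightest probes the sets thus part on comparisons that hold the WT array with DSS and LIF. With the mean over a gene's probes Defa42 was at 6.81 and Defa32 at 6.53 for LIF in WT, so the ranges then overlapped. For labelled Stat4-/- against WT with DSS and LIF they stayed apart, with Defa42 at −4.01 and Defa32 at −3.17. On the chromosome Defa5 and Defa29 lie at numbers 18 and 20, with Defa27 between them, while Defa42 lies apart at number 26. Whether the 6 genes were held back by the upper end of the signal range was not tested, but 0 spots were marked saturated on any array.

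The further probes of a gene gave the same direction wherever they were measured, with different sizes in Defa42 and Defa32. The other probes of Defa3 were 7.73 and 7.49 higher with LIF in WT, next to 7.62 for its brightest probe, and the other probe of Defa23 was 7.42 higher, next to 7.56. The second probe of Defa42 had signals of 23.7, 26.9, 138 and 58.5 on the arrays labelled Stat4-/- with DSS and LIF, labelled Stat4-/- with DSS, WT with DSS and LIF, and WT with DSS. It was 3.61 higher (12.2-fold) with LIF in WT, where the first probe was 10.01 higher. With DSS alone it was 0.32 higher on the array labelled Stat4-/- than on that of WT, where the first probe was 5.63 higher. Without scaling its signal was lower on the array labelled Stat4-/-, at 26.9 against 58.5, so for Defa42 the genotype difference with DSS depends on the probe. The second probe of Defa32 had signals of 5.62, 11.1, 46.1 and 6.16 in the same array order and was well above background on the array labelled Stat4-/- with DSS and that of WT with DSS and LIF alone. Set against the dimmest detected signals, it was at least 26.8-fold higher with LIF in WT, at least 3.40-fold higher on the array labelled Stat4-/- than on that of WT with DSS, and at least 7.98-fold lower on the array labelled Stat4-/- than on that of WT with DSS and LIF. For such a bound the dim side was taken as the probe's own value or, where higher, as the dimmest detected value of that array.

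**Figure D3:**
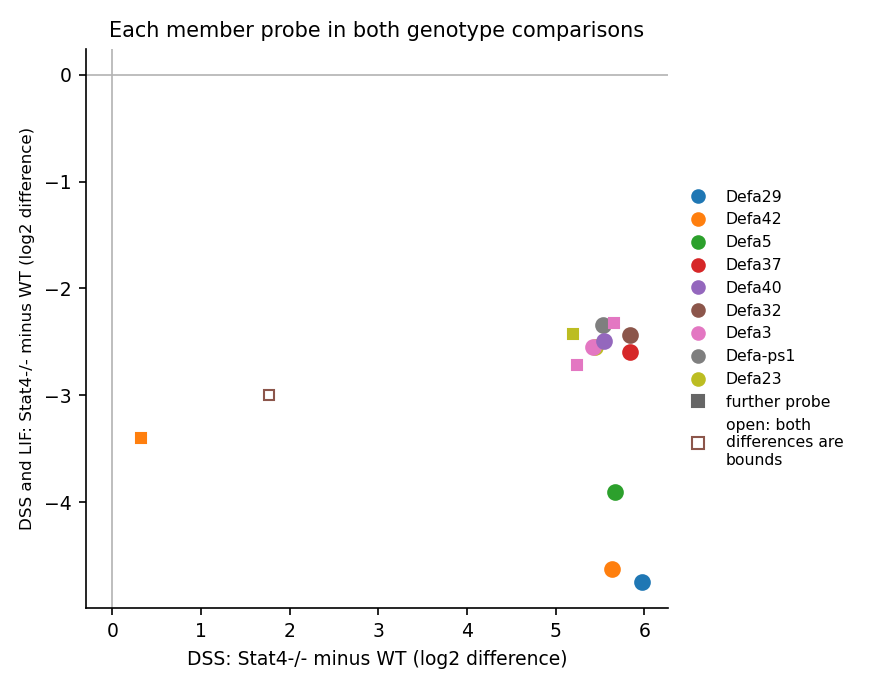
Log2 difference of labelled Stat4-/- minus WT with DSS (horizontal axis) and with DSS and LIF (vertical axis) for each of the 14 alpha-defensin probes, with circles for the probe that stands for a gene, squares for further probes and an open square where both differences are bounds. All 14 lie right of 0 and below 0, with the second probe of Defa42 at 0.32 on the horizontal axis and the brightest probes of Defa29, Defa42 and Defa5 lowest among the circles.

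Of the 8 further alpha-defensin genes with a named probe, Defa26 and Defa27 had the same profile as the 9. Defa26 had signals of 208 and 236 on the arrays labelled Stat4-/- with DSS and LIF and with DSS, and 557 and 17.2 on the matching WT arrays. Defa27 had 1735 and 2429.8 on those labelled Stat4-/-, and 4905 and 189.8 on the matching WT arrays. They were 5.22 and 5.12 higher on the array labelled Stat4-/- than on that of WT with DSS, and 2.28 and 2.36 lower with DSS and LIF. Defa39, a cryptdin-related sequence, had signals of 12.8, 18.5, 32.1 and 2.44 on the arrays labelled Stat4-/- with DSS and LIF, labelled Stat4-/- with DSS, WT with DSS and LIF and WT with DSS, the last of them not well above background. It was at least 18.7-fold higher with LIF in WT and at least 5.64-fold higher on the array labelled Stat4-/- than on that of WT with DSS. Defa38, another cryptdin-related sequence, was well above background on the array of WT with DSS and LIF alone, at 9.94, at least 5.78-fold higher than in WT with DSS. Defa21, Defa25, Defa-ps12 and Defa-ps13 were not well above background on any array. Defa21 read 1.82 to 2.50 on the 4 arrays, although its promoter is 97.7% identical to that of Defa32.

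Other genes of the Paneth cell moved less than the alpha-defensins. Of 26 listed genes, 22 had a named probe, and their summed signal in units of the 75th percentile was 490.3 and 494.0 on the arrays labelled Stat4-/- with DSS and LIF and with DSS, and 977.0 and 413.0 on the matching WT arrays. For LIF in WT 10 of 17 measured genes were at least 1 higher and 0 lower, with a median of 1.24, where all genes had 34.4% higher. Itln1, intelectin-1, a lectin that binds bacterial sugars, was 19.9-fold higher, the largest of the 17. Reg3a, another antibacterial lectin, was left out of them, because its single spot, at 4767 in WT with DSS and LIF and 923 in WT with DSS, was marked an outlier on the first of these arrays. The summed signals take every listed gene with a probe, detected or not. The outlier spot of Reg3a, at a log2 level of 7.65, is therefore part of the 977.0. Lyz1, the Paneth cell lysozyme that cleaves bacterial walls, was 1.56 higher on the log2 scale, Ang4, an antimicrobial ribonuclease, 1.47 and Reg3b, an antibacterial lectin, 1.60. Reg3g, a related lectin, was 1.24 higher, Spink4, a secreted protease inhibitor that goblet cells make as well, 1.95, Mptx1, a pentraxin, 1.49, and Clps, the colipase cofactor of lipase, 1.47. Guca2b, uroguanylin, was 1.04 higher and Nod2, a sensor of bacterial wall fragments, 1.25. Mmp7, the protease that activates cryptdins, had a difference of −0.61, opposite in sign to its substrates in this comparison. Its sign was that of the alpha-defensins for LIF in mice labelled Stat4-/- (−0.73) and for labelled Stat4-/- against WT with DSS (1.38). For labelled Stat4-/- against WT with DSS and LIF it was again opposite (1.26).

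With DSS alone 4 of 19 measured Paneth cell genes were at least 1 higher and 3 lower on the array labelled Stat4-/- than on that of WT, where 13.2% of all genes were higher and 6.95% lower. The median of the 19 was 0.17, beside 5.63 for the 9 alpha-defensins. Those higher were Itln1 at 2.89, Clps at 2.15, Mmp7 at 1.38 and Lyz1 at 1.00. Those lower were Nupr1, a stress-response nuclear protein, at −1.56, Nod2 at −1.10 and Spdef, a transcription factor of secretory epithelial cells, at −1.09. The list thus divided, and Itln1 was the highest of it. For LIF in mice labelled Stat4-/- 4 of 18 were higher and 1 lower, with a median of 0.27, where 3.22% of all genes were higher and 3.07% lower. Nupr1 (1.37), Nod2 (1.23), Kcnn4, a potassium channel (1.21), and Mptx1 (1.08) were higher and Itln1 (−1.05) lower. For labelled Stat4-/- against WT with DSS and LIF 4 of 17 were higher and 6 lower, with a median of −0.66, where 14.2% of all genes were higher and 31.3% lower. The higher genes were Clps at 1.30, Mmp7 at 1.26, Kcnn4 at 1.23 and Sox9, a transcription factor Paneth cells need, at 1.11. The lower genes included Itln1 at −2.48, Spink4 at −2.25, Guca2b at −1.66 and Reg3b at −1.34.

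**Figure D4:**
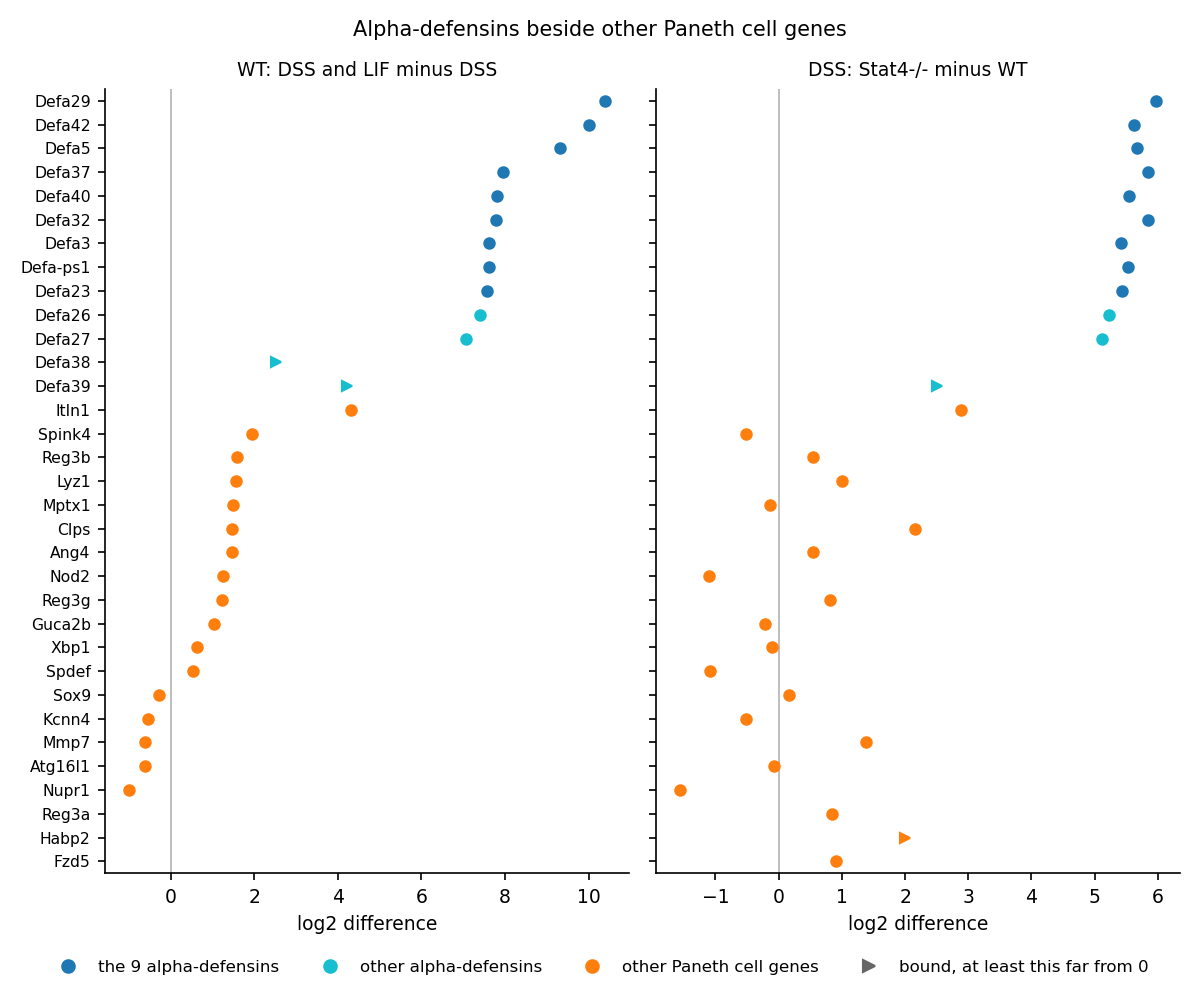
Log2 difference (horizontal axes) of the 9 alpha-defensins, the other alpha-defensins with a value and the other listed Paneth cell genes, for LIF in WT on the left and labelled Stat4-/- against WT with DSS on the right, with triangles for bounds. The 9 alpha-defensins lie at 7.56 or more on the left and 5.42 or more on the right, and Itln1 is the highest of the other Paneth cell genes measured on both arrays, at 4.32 and 2.89.

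Markers of other cell types were read on the same arrays, and their part in the alpha-defensin differences was not tested. In RNA of a mixed preparation, fewer cells of a type and less RNA per cell cannot be told apart. The summed signal of the 12 intestinal epithelium markers was 192.0 and 204.0 (in units of the 75th percentile) on the arrays labelled Stat4-/- with DSS and LIF and with DSS, and 304.0 and 174.0 on the matching WT arrays. The markers did not move together: Epcam, an epithelial adhesion molecule, and the keratins Krt8 and Krt19 differed by −2.64, −1.56 and −1.66 for LIF in WT, while Lgals4, a galectin that makes up most of the sum on each array, differed by 0.89. With LIF in WT 2 of 12 were at least 1 higher and 3 lower, where 34.4% of all genes were higher and 13.7% lower. On the array labelled Stat4-/- against WT with DSS 0 were higher and 2 lower, where 13.2% of all genes were higher and 6.95% lower. Of the 16 small intestinal markers with a probe, 6 and 5 were well above background on the arrays labelled Stat4-/- with DSS and LIF and with DSS, and 5 and 9 on the matching WT arrays, with summed signals of 11.1 and 7.25, and 14.4 and 14.7. Fabp2, a fatty acid binding protein (112 to 924 in processed signal), Slc10a2, the ileal bile acid transporter (41.8 to 343), Gata4 and Ada were well above background on all 4 arrays. Fabp1, Lct, Apoa1, Apob, Alpi, Rbp2 and Mttp, which serve lipid and sugar uptake in the small intestine, were not well above background on any array. Of 10 colonic markers 10 were well above background on each array but that of WT with DSS and LIF, where 8 were, with summed signals of 46.4 and 38.1 on the arrays labelled Stat4-/-, and 59.9 and 37.1 on the matching WT arrays.

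Goblet cell markers belong to the mucus-secreting epithelial cells. All 7 with a probe were well above background on the 4 arrays, with summed signals of 208.0 and 217.0 on the arrays labelled Stat4-/- with DSS and LIF and with DSS, and 505.0 and 214.0 on the matching WT arrays. With LIF in WT 4 of 7 were at least 1 higher, with a median of 1.95, where 34.4% of all genes were higher. Clca1, a secreted mucus protein, differed by 4.75 for LIF in WT, −0.41 for LIF in mice labelled Stat4-/-, 1.66 for labelled Stat4-/- against WT with DSS and −3.50 with DSS and LIF. Tff3, a trefoil peptide of mucus repair, differed by 3.19, −0.51, 1.18 and −2.52 in the same comparisons. These 2 had the same signs as the 9 alpha-defensins in each comparison, and the other 5 did not: Fcgbp, for example, differed by 1.20 for LIF in mice labelled Stat4-/- and by 1.79 for labelled Stat4-/- against WT with DSS and LIF. Neutrophil markers took another order, with summed signals of 2484.0 and 3227.0 on the arrays labelled Stat4-/- with DSS and LIF and with DSS, and 383.0 and 554.0 on the matching WT arrays, and Ltf, Mmp9 and Cxcr2 were not well above background on any array. S100a8, S100a9 and Retnlg make up most of the neutrophil sum on each array. With DSS alone 6 of 8 measured neutrophil markers were at least 1 higher on the array labelled Stat4-/- than on that of WT, with a median of 2.74, where 13.2% of all genes were higher. The others, Elane and Csf3r, differed by −0.20 and −0.03. Pancreatic acinar markers, the digestive enzymes of the pancreas, had summed signals of 442.0 and 144.0 on the arrays labelled Stat4-/- with DSS and LIF and with DSS, and 45.6 and 131.0 on the matching WT arrays. For labelled Stat4-/- against WT 2 of 6 measured were at least 1 higher with DSS, where 13.2% of all genes were. With DSS and LIF 5 of 5 were higher (median 3.38), where 14.2% of all genes were, and 0 were lower in either comparison. For LIF in mice labelled Stat4-/- 6 of 6 were higher (median 1.82), where 3.22% of all genes were. For LIF in WT 1 of 5 was higher and 3 lower, where 34.4% of all genes were higher and 13.7% lower. The 8 T cell markers had a median of −0.69 on the array labelled Stat4-/- against WT with DSS. Of them 0 of 8 passed 1 in either direction, where 13.2% of all genes were higher and 6.95% lower. For labelled Stat4-/- against WT with DSS and LIF, where 31.3% of all genes were lower, 4 of 4 measured NK cell markers were at least 1 lower, with a median of −3.06. In the same comparison 5 of 8 measured colonic markers were lower and 3 higher, where 14.2% of all genes were higher. Their median was −2.55, within a range from −3.91 (Aqp8) to 3.07 (Mettl7b). The 9 alpha-defensins had the same median, but all 9 were lower.

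Genes without a Defa symbol were ranked by likeness to the alpha-defensins, as the Euclidean distance over 4 arrays between a gene's log2 levels, centred on their mean, and the median profile of the 9, among 8027 candidate genes. The 9 themselves lay at 0.45 (Defa37) to 1.55 (Defa29), with Defa26 at 0.83 and Defa27 at 1.01. The nearest was AY761185, at 1.34, which neighbours Defa21 on the chromosome and to which the gene table gives no Defa symbol. Its log2 levels were 1.93 and 2.34 on the arrays labelled Stat4-/- with DSS and LIF and with DSS, and 6.65 and −2.75 on the matching WT arrays, and its distance lay within the 9 genes' own range. The next were Defb50, a beta-defensin just past the far end of the cluster, at 3.09, Cdc7, a kinase of DNA replication, at 3.17, Itln1 at 3.19 and Wfdc13, a whey acidic protein domain gene, at 3.41. All 4 lay beyond the members' own spread. Defb50 had log2 levels of 1.79 and 3.20 on the arrays labelled Stat4-/- with DSS and LIF and with DSS, and 4.93 and 0.22 on the matching WT arrays. Likeness over 4 arrays is a description, since any gene high on the WT array with DSS and LIF and low on that of WT with DSS scores well.

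In the authors' deposited table, which holds normalized log2 values of the same arrays, Defa29 had values of 8.97 and 9.29 on the arrays labelled Stat4-/- with DSS and LIF and with DSS, and 13.91 and 3.16 on the matching WT arrays. In the authors' deposited table Defa23 had 13.19 and 13.47 on those labelled Stat4-/-, and 15.61 and 8.26 on the matching WT arrays. No alpha-defensin probe of the 9 genes sat at the floor of that table, and the order of the arrays was as above.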

How the data were processed

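RNA of 4 samples was hybridized to one-colour (Cy3) Agilent arrays. The deposited scanner files hold spot intensity values from Agilent Feature Extraction, which the submitters' processing notes give as 9.1 and the headers as 11.0.1.1. The processed signal is the intensity after that software's background subtraction, per the file headers. A second deposited table holds normalized log2 values of the authors. Its column medians were 3.31, 3.31, 2.54 and 3.31 for labelled Stat4-/- with DSS and LIF, labelled Stat4-/- with DSS, WT with DSS and LIF and WT with DSS, and its correlation with log2 scanner signals was 0.971 to 0.992. Its scale and direction follow from that, while its centring and floor are not given in the sources used here.

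Each array held 43020 spots besides the control spots, which were left out. Spots marked as outliers were left out too, and log2 signals of a probe's spots averaged (Python 3.11.15, pandas 2.3.3, numpy 2.4.6). A probe with all its spots marked as outliers kept its signal but was counted as not detected. Detection of a probe needed the software's mark on 50% of its spots or more. The 75th percentile of each array was subtracted. RefSeq accessions named 27234 of 39429 probes, to 20659 genes. A gene entered a comparison where its brightest probe was detected on the pair of arrays, and was counted at a log2 difference of at least 1. Normexp and quantile scaling used limma 3.58.1 in R 4.3.3, and normexp ran on the median signal and median background. The steps were tested on simulated data. Promoters were aligned with Biopython 1.88.

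The number of arrays, 4, limits the precision, and no test across genes was run. The members and lists were chosen with earlier results of these data known. Genes named came from the 9 members, other alpha-defensins well above background on any array, listed Paneth cell genes with a difference of at least 1, defining markers of the other lists and the 5 genes nearest in profile without a Defa symbol. Markers named in lists of other cell types were picked after their values were seen.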

Additional observations from a re-analysis of the deposited data

Results flagged for a closer look

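The LIF difference ran opposite ways in the genotypes for all 9 genes: above 0 in WT and below 0 in mice labelled Stat4-/-, with 1 array in each group. The difference of these differences was not tested. On the log2 scale, labelled Stat4-/- minus WT, it was −10.72 for Defa29, −10.25 for Defa42, −9.57 for Defa5, −8.43 for Defa37 and −8.04 for Defa40. It was −8.28 for Defa32, −7.97 for Defa3, −7.88 for Defa-ps1 and −7.99 for Defa23. In mice labelled Stat4-/- each of the 9 LIF differences was smaller than 0.50 in size.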

How the results depend on the processing

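The direction of all 107 values of the 9 genes held in each comparison over the alternatives run, with log2 differences of 3.61 to 10.75 for LIF in WT, −1.97 to −0.12 for LIF in mice labelled Stat4-/-, 0.32 to 6.13 for labelled Stat4-/- against WT with DSS and −5.52 to −1.48 with DSS and LIF. Part of the 107 repeat the main values by construction and could not change direction. They come from the alternatives named in the last paragraph, and from genes with 1 probe where the choice of probe was varied. The medians of the 9 genes, 7.80, −0.32, 5.63 and −2.55 in that order, became 6.10, −1.18, 4.48 and −2.85 with normexp at an offset of 50, and 7.15, −1.70, 5.21 and −3.68 with normexp without offset. With normexp 6 (offset of 50) or 9 (no offset) of the 9 genes were at least 1 lower for LIF in mice labelled Stat4-/-, against 0 with the scanner software's background, and 8.88% or 24.2% of all genes were, against 3.07%. The cause was not tested. For LIF in WT the median was 8.12 with quantile scaling, 7.66 with scaling to the median of probes detected on every array, 8.09 in the authors' deposited table and 7.62 with the mean over a gene's probes. For labelled Stat4-/- against WT with DSS it was 5.87 in the authors' deposited table. With DSS and LIF it was −2.84 with quantile scaling and −2.41 with scaling to that median. A pair of alternatives was chosen after seeing the data: without scaling the medians were 5.43 for LIF in WT, 4.19 for labelled Stat4-/- against WT with DSS and −1.68 with DSS and LIF, and with the dimmest probe of each gene the median for LIF in WT was 7.62. Without scaling the median of all genes was −1.80 for LIF in WT, −1.37 for labelled Stat4-/- against WT with DSS and 0.42 with DSS and LIF, against 0.57, 0.07 and −0.45. With normexp at an offset of 50 it was 0.06 for LIF in WT, −0.12 for LIF in mice labelled Stat4-/- and −0.17 for labelled Stat4-/- against WT with DSS and LIF. The shares of all genes at least 1 higher and lower, 34.4% and 13.7% for LIF in WT, were then 8.85% and 17.1%, and those for labelled Stat4-/- against WT with DSS, 13.2% and 6.95%, were 3.12% and 7.78%.

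Leaving out the background filter, keeping outlier spots and asking for both arrays above background could not change the values of the 9 genes. Their representative probes were detected on every array and had 1 spot each. Leaving out Defa-ps1 left the values of the other genes as they were and moved no median by more than the spread between spots. The unchanged values under these alternatives are therefore no check of the results. No paired analysis was possible because the labels give no replicate numbers and each group has 1 array. Detection limits the second probe of Defa32 and, among the other family members, Defa38 and Defa39 to bounds.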
